A study of Mus musculus with 180 samples.

Results

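The cells described here were the 56 FL HSC (fetal liver haematopoietic stem cells) among 180 single mouse cells of 4 sorted populations, chosen by their population name alone. They were described by the genes that set them apart from all 3 other populations at once, and by the differences among the 56 cells themselves. FL HSC came from C57BL/6 embryos at E14.5 that carried Rosa LSL-Hoxb5-EGFP/+, written Hoxb5LSL/+ in the labels, a silent Hoxb5-EGFP cassette behind a Loxp-Stop-Loxp block in Rosa26, with no Cre named for them. Their gate took lineage-negative cells positive for CD45.2, Sca1, c-Kit, CD150 and CD11b, the protein called Mac1 in the labels. The 36 BM HSC (adult bone marrow HSC) and the 41 WT-MPP (multipotent progenitors) carried the same allele and came from mice of 8 weeks. The 47 CD11b+CD48+SK cells were donor cells sorted from irradiated primary recipients at week 8 after transplantation of Mx1cre/Rosa LSL-Hoxb5-EGFP/+ MPP, in which pIpC had switched on Hoxb5 through the interferon-inducible Mx1 promoter. The source label read bone marrow for every cell, FL HSC included, whereas the cell type label named fetal liver.

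The fetal liver is the main site of blood formation before birth, and its HSC divide and expand in number, whereas most HSC of the adult marrow are quiescent. HSC arise in the embryo from haemogenic endothelium and keep several genes of that tissue. The RNA-binding protein Lin28b, the chromatin protein Hmga2 and the Igf2bp proteins mark fetal against adult HSC, and in this pathway Lin28b blocks the maturation of the let-7 microRNAs, which silence Hmga2 and Igf2bp transcripts through short sites in their 3′ untranslated regions.

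Each library was 1 cell and no animal was named, so a population was treated as 1 sample, and differences between populations are given as values with no test. Levels are in TPM, transcript abundances scaled to sum to 1000000 in every cell. Read counts cannot be had from TPM, and the depth per cell is unknown. FL HSC had a median of 5206.5 genes at 1 TPM or more (3974 to 6789), against medians of 3844 to 4514 in the other populations, a difference that moves with the counts of higher genes given below and whose part in them was not tested. Counted above 0 TPM, the median was 5900 genes in FL HSC, 5943 in BM HSC, 5348 in CD11b+CD48+SK and 5322 in WT-MPP. Over the 10856 genes that reached 1 TPM in 10% or more of any population's cells, the median difference in mean log2(TPM+1) was 0.32 from CD11b+CD48+SK, 0.31 from BM HSC and 0.56 from WT-MPP, so that a typical gene already lay higher in FL HSC. Of FL HSC, 17 had Xist at 1 TPM or more, 15 had a Y-linked gene, 0 had both and 24 had neither, so cells of both sexes and therefore of more than 1 embryo were present.

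The sort was checked against its own genes. Ptprc, the gene of CD45, was at 1 TPM or more in 46 of the 56 FL HSC, Ly6a, a gene of Sca1, in 51, Kit in 48 and Slamf1, the gene of CD150, in 31. Itgam, the gene of CD11b, was at 1 TPM or more in 9 FL HSC (16.1%, 95% exact Clopper-Pearson interval 7.62 to 28.3%, which like all intervals here covers the counting of cells only). Itgam was at that level in 17 of the 47 CD11b+CD48+SK cells, so most cells of both populations sorted for the protein lay below it.

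The sequences below are let-7 microRNAs and matches to their seed in 7 genes of the fetal pathway. They are shown because all 7 genes stood higher in FL HSC, and whether a match acts as a site was not tested. Mature let-7 sequences are from RefSeq (GRCm38.p6), printed 5′ to 3′, and capitals mark the seed, bases 2 to 8. Of the 11 members listed, 10 shared the seed of let-7a and let-7j differed from it.
mmu-let-7a-5p: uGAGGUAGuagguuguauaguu
mmu-let-7d-5p: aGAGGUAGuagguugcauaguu
mmu-miR-98-5p: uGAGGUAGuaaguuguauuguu
mmu-let-7j: uGAGGUAUuaguuugugcuguuau
The match to the seed, CTACCTC, was searched on the transcript strand of the longest 3′ untranslated region of each gene (GENCODE M21, GRCm38), and CTACCTCA, which contains it, is the 8-base form. Capitals in the following sites mark the match.
Igf2bp1 site 1: gtgcgaagtaaaCTACCTCAaggtgtga
Igf2bp1 site 2: cagtgctattaaCTACCTCAgccccaga
Igf2bp1 site 3: taaatggatgaaCTACCTCAgtcctcac
Igf2bp2 site 1: cacaaataaaagCTACCTCAggtgtttt
Igf2bp3 site 1: atttttactcaaCTACCTCAggtattca
Hmga2 site 1: gacattcaatttCTACCTCAgcatcagt
Lin28b site 1: cgggcgggaagtCTACCTCAtgcaagca
Arid3a site 1: gcaagtttctttCTACCTCAggtctttt
Hmga1 site 1: tctgttcacaaaCTACCTCtggacggtt
All 7 genes held the 7-base match and 6 of them held the 8-base form, Hmga1 being the one without it. Of 9768 filtered genes with such a region, 979 held the 7-base match and 320 (3.28%) the 8-base form. Igf2bp1, Hmga2 and Lin28b each held 4 matches, and 3 or more stood in 0.143% of all genes. The regions of the 7 genes were also longer, with a median of 3014 bases against 1112. The 7 genes were written down as a fetal program known for let-7 control, so the sites describe the list and were not found by these data, and let-7 itself was not measured. Among the 182 genes with such a region that stood 2 or more log2 units above all 3 populations, 18 (9.89%) held the 7-base match, close to the share of all genes.

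Across all genes, 203 of 10856 (1.87%) had a mean log2(TPM+1) at least 2 higher in FL HSC than in each of the other 3 populations, and 23 (0.212%) had one at least 2 lower than in each. Against single populations, 554 genes (5.1%) were at least 2 higher and 142 (1.31%) at least 2 lower than in CD11b+CD48+SK, 783 (7.21%) and 116 (1.07%) than in BM HSC, and 1365 (12.6%) and 72 (0.663%) than in WT-MPP. The last gene counted as higher was Cdc16, whose smallest difference was 2.00028, and the first one not counted was Eif2b2 at 1.998. The last gene counted as lower was Insl6 (2.02) and the first one not counted was Coro2a (1.93). By the same rule 62 genes were higher and 55 lower in CD11b+CD48+SK, 30 and 13 in BM HSC, and 3 and 37 in WT-MPP. The split of 203 higher to 23 lower depended on how cells were averaged. It became 121 to 73 when the TPM was averaged before the logarithm, and 104 to 33 when the median difference from each population was set to 0.

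Taken singly, each marker gene given for the population overlapped between FL HSC and other cells, whereas Oaz1 and Pisd-ps3, described below, did not. Of the 30 genes of largest smallest difference, an FL HSC had between 21 and 30 at 1 TPM or more (median 26), and no cell of another population had more than 16. All 6 marker genes given for the population (Hbb-b2, Cnn3, Igf2bp1, Sox18, Mfap2 and Esam) were present in 22 FL HSC, and the fewest in any FL HSC was 3. The most in a cell of another population was 4, in BM HSC. The 30 genes were chosen on these cells, so the gap describes the choice.

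**Figure D1:**
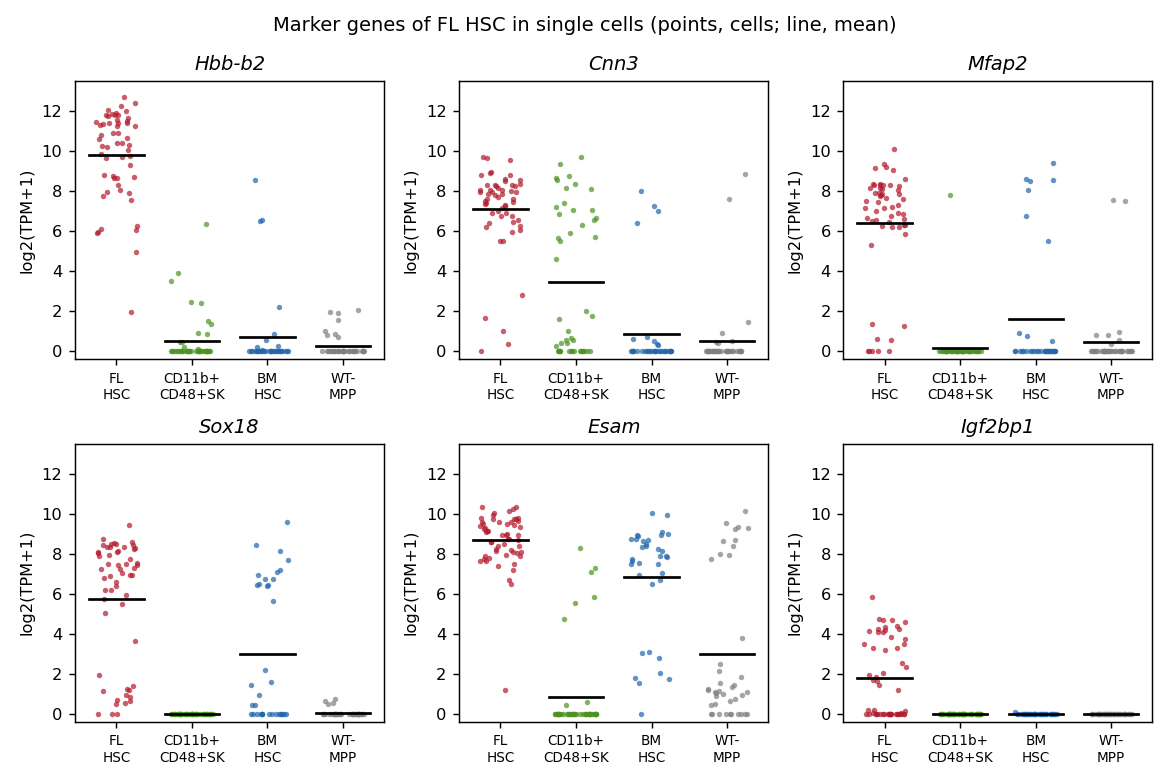
Level of 6 marker genes in each cell, as log2(TPM+1) on the vertical axis, by population on the horizontal axis, with a point for each cell and a line at the population mean. Hbb-b2 and Esam were present in all 56 FL HSC, whereas Igf2bp1 was at or near 0 in many of them and at 0.049 TPM or less in every other cell.

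The largest difference belonged to adult beta globin. Hbb-b2, a beta-globin gene of the oxygen carrier of red cells, ranged from 2.86 to 6651 TPM in the 56 FL HSC with a median of 1350. Its median was 0 in each other population, where the highest cells had 80.8 TPM (CD11b+CD48+SK), 378 TPM (BM HSC) and 3.1 TPM (WT-MPP). Its mean log2(TPM+1) was higher by at least 9.10, and that of Beta-s and Hbb-b1 by at least 7.36 and 6.89. Beta-s is the current Hbb-bs at chr7:103826534-103828096 (GRCm38, minus strand), and its transcript shared 66.9% of its 31-base words with another gene. The 3 symbols name copies of 1 locus whose levels went together over the 56 cells (Spearman's rho 0.990 to 0.995), so they are a single observation, and how reads were split among them is uncertain.

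Other genes of red cells mostly did not go with beta globin. Of 12 erythroid markers that passed the filter, 3 were higher than in all 3 populations, against 48.6% of all genes. Lower than in all 3 were 3, against 11.5%. All 4 globins that passed were higher than in all 3, and 3 of them were the beta-globin symbols above. Hba-a1, an alpha-globin gene, was at 1 TPM or more in 1 FL HSC and Hba-a2 in 9, and the embryonic Hbb-bh1 in 1. Klf1 and Gata1, the transcription factors of erythroid cells, were present in 2 and 4 of the 56 cells. Over 18 erythroid markers, the sum per cell had a median of 2627 TPM in FL HSC (830 to 10475), above CD11b+CD48+SK at 1313 and below BM HSC at 4910 and WT-MPP at 5074. Car2 weighed heavily in this sum, with a mean log2(TPM+1) of 10.57 in FL HSC against a median of 1.73 over the 12 filtered markers. Epor, the erythropoietin receptor, was the highest erythroid marker by smallest difference (1.34) and was present in 23 FL HSC. Over the 56 cells the mean of the 3 beta-globin symbols and that of 8 erythroid markers had a Spearman's rho of -0.10. Each point shares the library of its cell. Whether RNA of red cell precursors in the fetal liver entered these libraries was not tested.

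Markers of other cell types that a fetal liver holds were mixed. Of 6 hepatoblast markers that passed the filter, 2 were higher in FL HSC than in all 3 populations, against 48.6% of all genes. These were Dlk1, by 2 or more, and Apoa2, which was present in 6 FL HSC and listed at 0 in every other cell. Apoa2 passed the filter through FL HSC alone, so its place in this count was fixed in advance. Lower than in all 3 was 1, Afp, against 11.5% of all genes. Alb, the albumin of hepatoblasts, was present in 1 FL HSC at 16.9 TPM, and Afp in 7. The summed hepatoblast markers had a median of 193 TPM in FL HSC, within the 147 to 242 of the other medians.

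Of 5 macrophage markers, 3 were higher than in all 3 populations, against 48.6% of all genes, and 1 was lower, against 11.5%. Cd68 stood highest, at 1 TPM or more in 29 FL HSC with a highest value of 900 TPM and a smallest difference of 2.18, and the sum had a median of 62.5 TPM against 0 to 0.234 elsewhere. C1qb and C1qc, of resident macrophages, were present in 3 and 6 FL HSC. Of the 2 stromal markers that passed, Postn, periostin, was present in 11 FL HSC at up to 236 TPM and listed at 0 in every other cell, whereas Pdgfrb was listed at 0 in every FL HSC, and the sum had a median of 0 TPM in all 4 populations.

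Of 7 lymphoid markers, 2 were higher in FL HSC than in all 3 populations, against 48.6% of all genes. These were Cd79b and Vpreb1, which were present in 47 and 7 FL HSC. The summed lymphoid markers had a median of 257 TPM in FL HSC, above BM HSC (226) and WT-MPP (229) and below CD11b+CD48+SK (1817). Dntt, an enzyme of lymphoid progenitors, was listed at 0 in every FL HSC, and 3 counts, taken here as the limit that a count of 0 allows, would be a share of 5.36% of 56 cells. What part other cell types had in the FL HSC libraries was not tested.

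The fetal RNA-binding program was higher throughout in FL HSC. Of its 6 genes present in at least 20% of FL HSC, a cell held between 1 and 6, with a median of 4. All 7 genes had a higher mean than in each other population, where 48.6% of all genes did so, and Hmga1, Hmga2 and Igf2bp2 were higher by 2 or more. Igf2bp1, a marker given for the population, reached 1 TPM in FL HSC alone and passed the filter only through them. Its place in this count was fixed in advance, so the count describes the list and was not a test. The median difference of the 7 genes was 1.98 from CD11b+CD48+SK, 1.85 from BM HSC and 2.03 from WT-MPP, against 0.32, 0.31 and 0.56 for all genes. The 3 medians kept their sign under every alternative that was run.

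Igf2bp1, a protein that binds and stabilises messenger RNAs, lies at chr11:95957163-96005940 (minus strand). It ranged from 0 to 55.3 TPM in FL HSC with a median of 1.48, and was at 1 TPM or more in 29 of the 56 cells (51.8%, interval 38.03 to 65.3%). It was at that level in 0 of the 124 other cells, where a limit of 3 counts would be a share of 8.33% of the 36 BM HSC.

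Hmga2, an architectural chromatin protein that supports self-renewal of young stem cells, lies at chr10:120361275-120476469. It ranged from 0 to 90.2 TPM in FL HSC (median 16.7) and was present in 46 cells (82.1%, interval 69.6 to 91.1%). In BM HSC it was present in 9 of 36 cells, at up to 120.4 TPM, so the ranges overlapped, and in WT-MPP it was present in 2 cells at no more than 4.7 TPM. Its relative Hmga1 was present in all 56 FL HSC at 84.0 TPM or more (median 313), whereas the median was 46.7 to 98.1 TPM elsewhere.

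Igf2bp2 was present in 34 FL HSC with a median of 10.1 TPM and a highest value of 99.6, and in 5 BM HSC. Igf2bp3 was present in 23 FL HSC and Arid3a, a transcription factor of fetal lymphoid development, in 29. Lin28b, the head of the pathway, was present in 7 FL HSC (12.5%, interval 5.18 to 24.1%) and in 2 BM HSC (5.56%, interval 0.68 to 18.7%). These intervals overlap, and with 1 sample per population no difference was tested.

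Of the few pairs of members compared cell by cell, most did not go together. Igf2bp1 and Igf2bp2 were both present in 18 cells, only the first in 11, only the second in 16 and neither in 11, with a Spearman's rho of -0.003 over the 56 cells. The rho was 0.41 for Igf2bp1 and Igf2bp3, 0.11 for Igf2bp2 and Igf2bp3 and -0.06 for Igf2bp1 and Hmga2. No pair of members with Lin28b, Hmga1 or Arid3a was compared. Low values drop out of single-cell libraries, and what part this had was not tested.

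**Figure D2:**
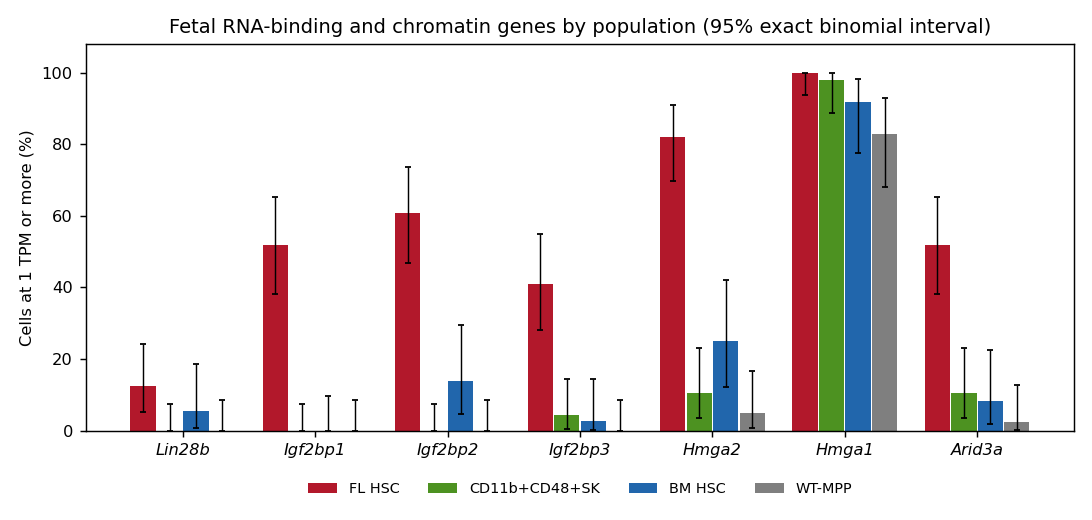
Share of cells at 1 TPM or more, in percent, for 7 fetal RNA-binding and chromatin genes by population, with 95% exact binomial intervals that cover the counting of cells only. Igf2bp1 stood at 51.8% in FL HSC and at 0 elsewhere, whereas Hmga1 stood at 82.9% or more in all 4.

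Imprinted genes are read from 1 parental copy, and many of them steer fetal growth. Of 13 that passed the filter, 9 were higher in FL HSC than in each other population, against 48.6% of all genes, and 5 were higher by 2 or more, against 1.87%, namely H19, Cdkn1c, Igf2, Ndn and Dlk1. H19, a non-coding RNA at chr7:142575529-142578143 (minus strand), ranged from 0 to 217 TPM in FL HSC with a median of 28.8 and was present in 37 cells. It was listed at 0 in all 124 other cells, so it passed the filter through FL HSC alone and its place in the counts above was fixed. Igf2, the fetal growth factor beside it at chr7:142650766-142666816, ranged from 0 to 80.9 TPM (median 3.36) and was present in 32 FL HSC, 1 BM HSC and 1 WT-MPP. Its transcript shared 76.0% of its 31-base words with another annotated gene, so reads may be split.

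H19 and Igf2 were present together in 22 FL HSC, H19 alone in 15, Igf2 alone in 10 and neither in 9 (rho 0.08). Cdkn1c, the Cdk inhibitor p57 that holds adult HSC in quiescence, had a median of 174 TPM in FL HSC and was present in 48 cells. Its median was 19.7 TPM in BM HSC, where it was present in 21 of 36 cells, and 0 in the others, and its smallest difference was 2.68. Ndn, necdin, had a median of 119 TPM in FL HSC and 1.78 TPM in BM HSC. Dlk1 was present in 29 FL HSC and in 2 BM HSC. Grb10 went the other way against BM HSC, with a median of 5.08 TPM in FL HSC and 13.9 in BM HSC. The median of the 13 genes was 2.28 above CD11b+CD48+SK, 1.43 above WT-MPP and 0.45 above BM HSC, against 0.32, 0.56 and 0.31 for all genes. BM HSC thus lay nearest, and against them the list as a whole stood little above a typical gene. Of the 13, 1 was lower than in all 3 populations, against 11.5% of all genes. The summed list had a median of 1077 TPM per FL HSC, 1001 per BM HSC, 783 per WT-MPP and 754 per CD11b+CD48+SK cell.

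Genes of endothelial cells formed the next group. Of 37 that passed the filter, 20 were higher in FL HSC than in all 3 populations, a share near the 48.6% of all genes, and 5 were higher by 2 or more, against 1.87%. These were Jam3, Ecscr, Rasip1, Ramp2 and Sox18. Sox18 is a marker given for the population, and the list was chosen with earlier results of these data known. The counts therefore describe the list and were not a test. Lower than in all 3 populations were 3, against 11.5% of all genes. The median difference was 1.04 from CD11b+CD48+SK, 0.54 from BM HSC and 0.89 from WT-MPP, against 0.32, 0.31 and 0.56 for all genes. Those from BM HSC and WT-MPP turned to -0.04 each when the TPM was averaged before the logarithm. Summed over the list, FL HSC had a median of 4305 TPM per cell, BM HSC 4135, WT-MPP 4444 and CD11b+CD48+SK 2656.

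Jam3, a junctional adhesion molecule at chr9:27097384-27155421, ranged from 0 to 863 TPM in FL HSC with a median of 102 and was present in 46 cells. It was present in 9 BM HSC and 5 WT-MPP and listed at 0 in every CD11b+CD48+SK cell. Rasip1, which binds Ras proteins and is needed for vessel lumens, had a median of 49.8 TPM in FL HSC (0 to 407) and was present in 40 of them, in 3 BM HSC and in 1 WT-MPP. Ramp2, the partner of the adrenomedullin receptor, was present in 34 FL HSC and in 5 other cells, but its transcript shared 70.6% of its words with another gene.

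Sox18, an endothelial transcription factor at chr2:181669836-181671640, was present in 47 FL HSC with a median of 139 TPM (0 to 688). It was present in 17 BM HSC, at up to 771 TPM, and in 0 CD11b+CD48+SK cells and 0 WT-MPP. Esam, an adhesion molecule of endothelium and HSC at chr9:37528078-37538319, was present in all 56 FL HSC (1.3 to 1310 TPM, median 485) and in 35 of 36 BM HSC (median 232 TPM). Its smallest difference, 1.84, was the one from BM HSC.

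Genes that define endothelium itself were not all present. Cdh5, VE-cadherin, was at 1 TPM or more in 7 FL HSC and in 1 other cell. Kdr and Sox17 were each present in 1 FL HSC and Sox7 in 0. Erg, a transcription factor of both endothelium and HSC, was lower in FL HSC than in all 3 populations, by at least 1.23, and was present in 10 of 56 cells. Tie1 was level with BM HSC (a difference of -0.08).

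**Figure D3:**
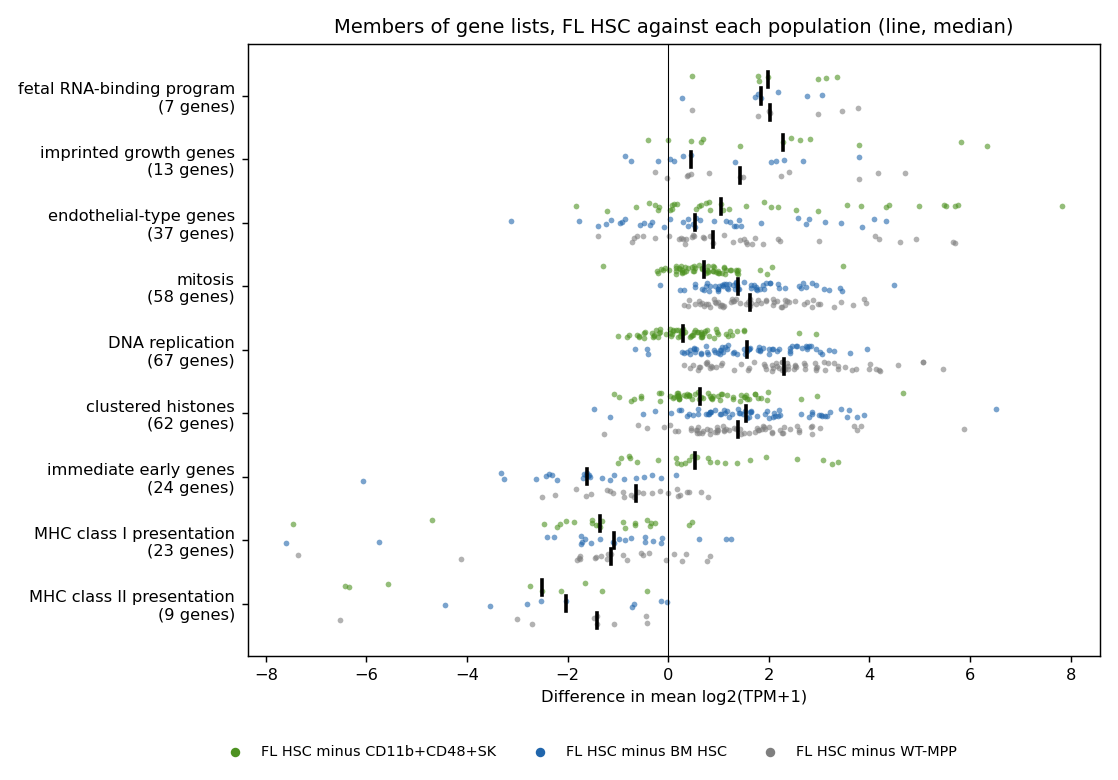
Difference in mean log2(TPM+1), FL HSC minus each other population, on the horizontal axis for the filtered members of 9 gene lists (points), with the median of each as a black line. Of the MHC class II genes all 9 lay below 0 in each comparison, and of the fetal RNA-binding program all 7 lay above 0.

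The leading 30 also held genes of the cytoskeleton or matrix, among them Mfap2, Csrp2, Cnn3 and Tnni2. Mfap2, a protein of extracellular microfibrils at chr4:141010418-141015984, was present in 49 FL HSC with a median of 151 TPM (0 to 1115), and in 10 other cells, 7 of them BM HSC. Cnn3, the actin-binding calponin 3 at chr3:121426497-121458207, was present in 54 FL HSC with a median of 200 TPM (0 to 841). It was seen in 24 cells of the CD11b+CD48+SK population, at up to 838 TPM, which set its smallest difference at 3.65, whereas against the adult cells alone it was 6.22.

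Csrp2, a LIM protein of the actin skeleton, was present in 45 FL HSC with a median of 123 TPM, and Tnni2, a troponin of fast muscle, in 36 with a median of 53.98 TPM. Tpm4, a tropomyosin, was 2.32 higher than in CD11b+CD48+SK, 5.03 higher than in BM HSC and 6.04 higher than in WT-MPP. The list of 35 actin-binding and matrix genes was not shifted as a whole, with medians of 0.09, 0.46 and 0.59 from CD11b+CD48+SK, BM HSC and WT-MPP, the first turning to -0.05 with the TPM averaged before the logarithm, against 0.32, 0.31 and 0.56 for all genes. Averaging the TPM first also lowered the smallest difference of single genes, to 1.18 for Cnn3, 1.70 for Mfap2, 1.16 for Sox18 and 0.94 for Esam.

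Signalling genes among the leading 30 included Dok2 and Grap, which are adaptors of receptor tyrosine kinases. Dok2 was present in every FL HSC, from 128 to 1660 TPM (median 580), whereas its median was 115 TPM in CD11b+CD48+SK, 6.34 in BM HSC and 1.04 in WT-MPP. Grap, at chr11:61653265-61672784, was present in 43 FL HSC with a median of 103 TPM, in 3 CD11b+CD48+SK cells and in 0 adult cells, where it was listed at 0 throughout. Gfi1, a repressor that restrains HSC proliferation, was present in 48 FL HSC (median 118 TPM), in 24 CD11b+CD48+SK cells, in 5 BM HSC and in 10 WT-MPP. Tspan6, a tetraspanin, was present in 54 FL HSC and in 39.02 to 48.9% of the cells of each other population, and Maged2 in 55 and in 19.1 to 58.3%. With the TPM averaged first, the smallest difference of Dok2 was 2.12 in place of 3.87, that of Gfi1 2.02 in place of 3.50, and that of Maged2 1.37 in place of 4.48. Smagp, Dera, Emid1, Cox6b2, AI848285, Gm1673 and Rn4.5s completed the 30, with smallest differences of 3.20 to 3.78.

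Several of the leading genes have copies or pseudogenes, or lie where annotation is unsettled. Oaz1, the antizyme that controls polyamines, ranged from 582 to 1584 TPM in FL HSC and did not exceed 284 TPM in any other cell, so the groups did not overlap. Gm5506, a copy of the enolase gene Eno1, ranged from 116 to 1255 TPM, and its transcript shared 88.6% of its words with another gene. Pisd-ps3, a pseudogene of phosphatidylserine decarboxylase, was present in all 56 FL HSC (1.16 to 385 TPM) and listed at 0 in every other cell, while its relatives Pisd-ps1 and Pisd-ps2 went the opposite way, lower in FL HSC by at least 3.66 and 2.91.

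Vamp7, a vesicle SNARE protein, and Tmlhe lie on the unplaced contig GL456233.1. They were above 0 in 42 and 13 FL HSC and listed at 0 in every other cell. In all, 101 genes were above 0 in at least 10% of FL HSC and at 0 in all 124 other cells, of which 20 were annotated as pseudogenes and 37 had a mean below 1 TPM. The same count was 29 for CD11b+CD48+SK, 18 for BM HSC and 1 for WT-MPP. Whether the FL HSC libraries were aligned or annotated in another way than the rest was not tested. With pseudogenes and genes that share at least 50% of their words left out, 176 genes were higher and 18 lower by 2 or more.

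Genes lower in FL HSC than in every other population were few and were led by those of antigen presentation. Of 23 genes of MHC class I presentation, which show peptides to T cells, 18 were lower than in all 3 populations, where 11.5% of all genes were lower. The list's median difference was -1.36 from CD11b+CD48+SK, -1.07 from BM HSC and -1.14 from WT-MPP. Summed over the list, FL HSC had a median of 9186 TPM per cell (4462 to 30586), and the medians elsewhere were 23582 to 29054, with ranges that overlapped.

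H2-Q7, a class Ib molecule at chr17:35439155-35443773, showed the largest difference. It was present in 5 FL HSC, at up to 128 TPM, but in all 47 CD11b+CD48+SK cells, 33 of 36 BM HSC and 41 of 41 WT-MPP, with medians of 278 to 399 TPM, and its smallest difference was 7.36. H2-Q6 and H2-Q5, its neighbours, were lower by at least 4.12 and 2.15, but share 51.8% and 54.4% of their words with another gene. H2-Q7 itself shares 37.4%, so how reads were split among such genes is uncertain.

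The classical molecules were lower by less. H2-K1 had a median of 1134 TPM in FL HSC against 3427 to 4531 elsewhere, and H2-D1 had 1187 against 3053 to 4012. Their smallest differences were 1.44 and 1.46, and B2m, the shared light chain, gave 1.43. Erap1 alone of the list was higher in FL HSC than in all 3, by 0.48.

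All 9 genes of MHC class II presentation that passed the filter were lower in FL HSC than in all 3 populations, against 11.5% of all genes. H2-DMa, which loads peptides, was present in 16 FL HSC (median 0 TPM) and in 34 to 47 cells of each other population, with a smallest difference of 4.44. H2-Ab1, a chain of class II itself, was present in 3 FL HSC, in 41 CD11b+CD48+SK cells, in 23 BM HSC and in 25 WT-MPP. Cd74, the invariant chain, was present in 8 FL HSC, and the summed list had a median of 72.2 TPM per FL HSC against 554 to 943.

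Other genes lower in FL HSC were of several kinds. Rgs1, a brake on G protein signalling at chr1:144242296-144249242, was listed at 0 in all 56 FL HSC and was present in 24 CD11b+CD48+SK cells, 35 BM HSC and 41 WT-MPP. Glipr1 was present in 25 FL HSC and in every other cell, with a median of 0.553 TPM against 326 to 494. Muc13, a transmembrane mucin, was present in 8 FL HSC and in 78 to 94% of the cells elsewhere.

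Myc, the growth-promoting transcription factor, was present in 30 FL HSC, and its median of 34.6 TPM stood against 264 TPM in BM HSC, 343 in WT-MPP and 600 in CD11b+CD48+SK. Myl10, a myosin light chain, was present in 7 FL HSC but in all BM HSC and WT-MPP, and it was lower by 7.87 and 9.02 than in these and by 3.47 than in CD11b+CD48+SK. Ndrg1 was present in 1 FL HSC and in 56 to 61% of the cells elsewhere. Serpinb1a, an inhibitor of neutrophil proteases, was present in 2 FL HSC, 18 BM HSC, 35 WT-MPP and all CD11b+CD48+SK cells.

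The cell cycle set FL HSC apart from adult cells more than from CD11b+CD48+SK. Of 58 mitosis genes, 52 were higher than in all 3 populations, against 48.6% of all genes. By 2 or more there were 2, Cenpa and Ccnb1, a share near the 1.87% of all genes. Their median difference was 1.38 from BM HSC, 1.63 from WT-MPP and 0.72 from CD11b+CD48+SK. Of 67 genes of DNA replication, 47 were higher than in all 3, again against 48.6%, and 1, Prim1, by 2 or more, a share near 1.87%. Their median differences were 1.57, 2.31 and 0.30 in the same order. The last of these turned to -0.03 with the median difference of all genes set to 0.

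Prim1, the primase, led the replication genes. It was present in 49 FL HSC (median 133 TPM), 27 CD11b+CD48+SK cells, 14 BM HSC and 8 WT-MPP. Cenpa, the histone H3 variant of centromeres, was present in 50 FL HSC with a median of 76.7 TPM and in 28 to 44% of the cells elsewhere. Of 62 clustered histone genes, which are made in S phase, 49 were higher in FL HSC than in all 3, against 48.6% of all genes. By 2 or more there were 3, against 1.87%. Hist1h2ao ranged from 5.27 to 8910 TPM with a median of 1344, but its transcript shared 93.8% of its words with another histone gene.

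Per cell, mitosis genes divided the FL HSC. An FL HSC had between 4 and 57 of the 58 genes at 1 TPM or more, with a median of 11 and quartiles of 8 and 38. Birc5, Ube2c, Ccnb2 and Aurkb, genes of the spindle and of mitotic exit, were all present in 14 of the 56 FL HSC (25%, interval 14.4 to 38.4%) and all below 1 TPM in 19. In CD11b+CD48+SK, all 4 were present in 9 of 47 cells (19.1%, interval 9.15 to 33.3%), an interval that overlaps that of FL HSC, and in 0 BM HSC and 0 WT-MPP.

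**Figure D4:**
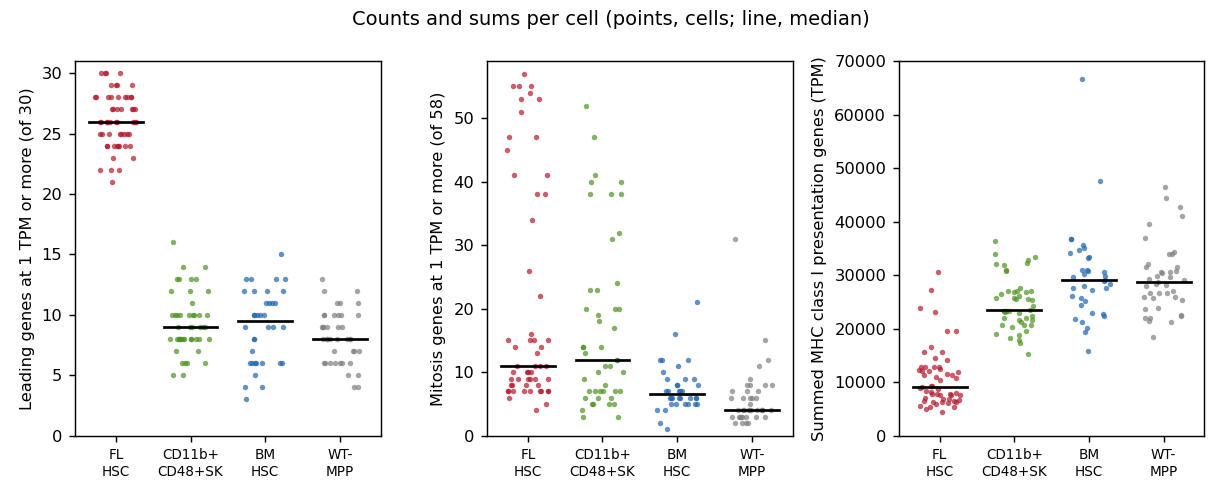
Values per cell by population, with a point for each cell and a line at the median. Shown are the number of the 30 leading genes at 1 TPM or more, the number of the 58 mitosis genes at 1 TPM or more, and the summed TPM of the MHC class I presentation genes. FL HSC had at least 21 of the leading genes where other cells had at most 16, and their mitosis genes spread from 4 to 57.

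The spread among the 56 FL HSC was measured for 7963 genes as the SD of log2(TPM+1) minus the median SD of the 200 genes nearest in mean, called the excess SD. It reached 1 or more in 22 genes (0.276%) and 0.5 or more in 241 (3.03%). The beta globins led (Hbb-b1 1.88, Hbb-b2 1.70, Beta-s 1.58), and the SD of Hbb-b2 was 2.23 around a mean of 9.82. With genes of shared sequence and pseudogenes left out, 13 genes remained at 1 or more.

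Of the other 19 genes, 6 act in the cell cycle and 4 are clustered histones, 3 of which share most of their words with other genes. Pcna, the replication clamp, ranged from 0.766 to 3052 TPM with an excess SD of 1.32. Birc5, survivin, had a median of 0.406 TPM and a highest value of 1722, with an excess SD of 1.23, and Cks2, Cks1b, Ube2c and Ccnb2, partners of the cyclin kinases and of their degradation, had 1.13, 1.10, 1.03 and 1.03. The excess SD of Ube2c dropped to 0.62 when each cell's number of genes present was taken out by a straight line. Of 50 mitosis genes with a spread, 19 had an excess SD of 0.5 or more, against 3.03% of all 7963 genes. At 1 or more there were 3 of these 50, 1 of 64 replication genes and 4 of 57 clustered histones, against 0.276%.

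Genes outside the cycle also varied. H2-T23, a class Ib molecule, ranged from 0 to 2524 TPM with an excess SD of 1.28. Apoe, which carries lipids, ranged from 4.47 to 8105 TPM around a median of 1507, and Ltb, lymphotoxin beta, from 2.78 to 3436 TPM. Tsc22d1, Wfdc17 and Fos had an excess SD of 1.20, 1.08 and 1.07, and Fos, an immediate early gene, was below 1 TPM in 19 cells and reached 4265 TPM in another.

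**Figure D5:**
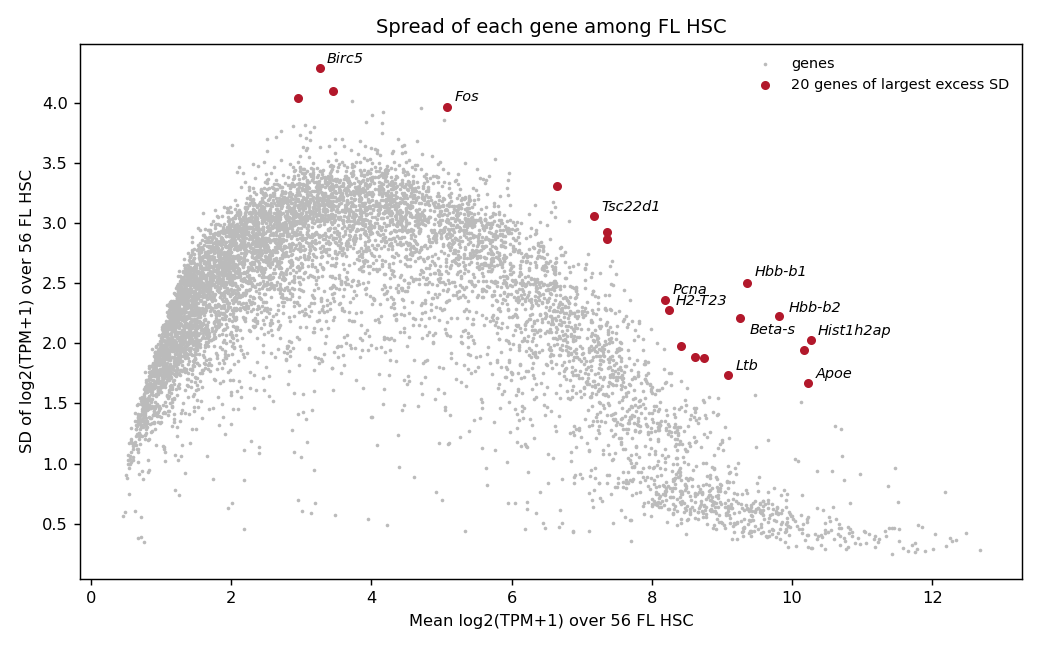
SD of log2(TPM+1) over the 56 FL HSC on the vertical axis against the mean on the horizontal axis, with a grey point for each of 7963 genes and red points for the 20 genes of largest excess SD. The beta globins, histones, Pcna and Apoe lay above genes of like mean, and Birc5 had an SD of 4.29.

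The leading axis of this spread went with the cell cycle and with the number of genes present. The first principal component over the 2000 genes of largest variance held 5.67% of it, with Birc5, Ube2c, Pbk and Aurkb at its end, and its Spearman's rho over the 56 cells was 0.89 with the mean of the replication genes, 0.78 with that of the mitosis genes and 0.70 with the number of genes at 1 TPM or more. These points share the library, and the list genes were among those that made the component. The third component (2.84%) ended in interferon-stimulated genes such as Rtp4, Tap1, Irf9 and Oasl2.

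The groups' means per cell were set against those of the cycle genes. The mitosis mean had a Spearman's rho of 0.62 with replication and 0.64 with the histones, but 0.12 with the globins, 0.09 with the endothelial-type genes, 0.11 with the fetal RNA-binding program, -0.07 with MHC class I presentation and -0.28 with the erythroid markers. The replication mean had one of 0.35 with the globins, -0.37 with the erythroid markers, 0.31 with the heat shock chaperones and 0.68 with the number of genes present. Outside the mitosis list, the genes most like its mean over the cells were Neil3 (rho 0.82), 1190002F15Rik (0.81), Cenpk (0.77) and Pbk (0.76).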

How the data were processed

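Single cells were sorted, and their amplified cDNA was sequenced. Per the paper's methods and the submitters' processing notes, the authors used HISAT2 2.1.0 with mm10 for alignment and StringTie 1.3.4 for transcript levels. The deposited values are TPM, each cell summing to 1000000 over 14825 genes. The annotation is not given in the sources used here. Of 181 columns, 1 matched no sample analysed here and was left out, and no columns were identical. No cell was filtered out, and doublets were not sought since each library was 1 sorted cell.

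TPM was transformed to log2(TPM+1), with a pseudocount of 1, and each population's cells were averaged. The pseudocount makes differences of low genes smaller. Genes that reached 1 TPM in 10% or more of any population's cells were kept. A gene was called present at 1 TPM. The smallest of the 3 differences was counted at 2 or more. The excess SD used genes present in at least 20% of FL HSC. With 1 sample per population there was no test.

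The members, gene lists and rule for named genes were chosen with earlier results of these data known. Named were the 6 markers, the 30 genes of largest smallest difference among genes present in at least 50% of FL HSC, the 20 lower genes present in at least 50% of the cells of each other population, the 20 of largest excess SD, the ends and the defining members of 30 lists, and paralogs. The 10 genes most like a list's mean were ranked by Spearman's rho. Transcripts of GENCODE M21 were compared by 31-base words. Python 3.11.15, numpy 2.4.6, pandas 2.3.3, scipy 1.17.1 and matplotlib 3.10.9 were used, and the procedure was tested on simulated data.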

Additional observations from a re-analysis of the deposited data

How the results depend on the processing

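No paired analysis was possible because the results come from no test and the labels pair no cells. The count of genes at least 2 higher than in all 3 populations, 203, became 555 with a pseudocount of 0.1 TPM, 24 with one of 10 TPM, 121 with the TPM averaged before the logarithm (40 of the 203 genes among them), 949 with the median over cells, 564 against BM HSC and WT-MPP only, and 104 with median differences set to 0. The count of genes at least 2 lower, 23, became 61, 8, 73 and 36 with the pseudocounts of 0.1 and 10 TPM, the TPM averaged first and the adult cells only. The count of genes with an excess SD of 1 or more, 22, became 40 and 11 with the pseudocounts of 0.1 and 10 TPM, and 13 without genes of shared sequence and pseudogenes. The other alternatives, namely no filter, a filter at 50% of cells, cells scaled by the median ratio, TPM rescaled without globins, 50 nearest genes and the residual on genes present, left these counts within 1.5 times. No smallest difference of a named gene changed sign under these alternatives. Of those differences, 443 values stayed within 1.5 times and 123 moved further. Of the values for list medians, 526 stayed and 425 moved, and of those for gene spreads 149 stayed and 2 moved. The cause was not tested. With the TPM averaged first, the median difference of all genes turned to -0.13 from BM HSC and -0.10 from WT-MPP. Leaving out genes of shared sequence and setting median differences to 0 were chosen after seeing the data.

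Each population is 1 sample and no animal is named, so age, tissue, sort gate, transplantation and library preparation cannot be told apart. By median, FL HSC had more genes at 1 TPM or more per cell, though not more above 0 TPM than BM HSC. Without read counts this cannot be equalised. Intervals on shares cover the counting of cells only.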

Other observations

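Immediate early genes, which answer to stimulation and to the handling of cells, stood between the populations. Of 24 that passed the filter, 0 were higher in FL HSC than in all 3 populations, against 48.6% of all genes, and 5 were lower than in all 3, against 11.5%. The median difference was -1.61 from BM HSC, -0.64 from WT-MPP and 0.53 from CD11b+CD48+SK, where that of all genes was 0.31, 0.56 and 0.32. Egr1 had a median of 0 TPM in FL HSC and 265 TPM in BM HSC, and Junb had 116 TPM against 638. Over the 56 FL HSC their mean per cell had a Spearman's rho of 0.59 with that of the adult HSC genes, of which 2 are in both lists.

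Interferon-stimulated genes varied widely from one FL HSC to another. Their mean log2(TPM+1) per cell, over 34 genes, ran from 2.43 to 8.83 with a median of 4.08, and the next highest cell was at 7.58. Its Spearman's rho with the mean of MHC class I presentation was 0.42 over the 56 cells, in lists that share no gene. Against the other populations the whole list was not shifted in one direction, with medians of 0.77 from CD11b+CD48+SK, 0.07 from BM HSC and 0.01 from WT-MPP, the last turning to -0.33 with the TPM averaged before the logarithm and the last 2 to -0.24 and -0.55 with the median differences of all genes set to 0. Irf7 was the highest of the list by smallest difference (1.81) and Tgtp1 the lowest (lower by at least 1.47).

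Cytosolic ribosomal protein genes, 81 in all, had a median difference of -0.45 from CD11b+CD48+SK, 0.38 from BM HSC and 0.61 from WT-MPP, against 0.32, 0.31 and 0.56 for all genes. Their mean per cell had an SD of 0.25 over the FL HSC, the smallest among 14 lists. Notch2 was lower in FL HSC than in all 3 populations by at least 1.85, and among the genes of cytokine receptors Ifngr1 was higher by at least 1.304. Cells of both sexes were seen in FL HSC and in CD11b+CD48+SK (37 cells with Xist and 4 with a Y-linked gene), whereas 0 BM HSC and 0 WT-MPP had a Y-linked gene at 1 TPM or more.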
